A study of Mus musculus with 6 samples.

Results

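The 10 genes described here are the EGF family ligands *Hbegf*, *Areg*, *Ereg*, *Epgn*, *Btc*, *Tgfa* and *Nrg1* and the ErbB receptors *Egfr*, *Erbb2* and *Erbb3*, taken by gene symbol from a table of 17554 coding genes. They were measured by bulk RNA-seq in corneal epithelium from 3 mice of the genotype *Krt14-Cre; Rela f/f* (mutant) and 3 control mice, which the labels call WT, all C57BL/6 and 2 months old. *Krt14-Cre* is a recombinase driven by the keratin 14 promoter, which is active in the basal cells of stratified epithelia in general, so the floxed part of *Rela*, the gene of the NF-κB subunit RelA, is lost in other such epithelia as well as in the cornea. The comparison asks whether the mRNAs of the ligands and receptors differed between the genotypes at this age.

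ErbB receptors are tyrosine kinases that sit in the cell membrane and pair with each other when a ligand binds. EGFR binds TGFα, amphiregulin (*Areg*), HB-EGF, betacellulin (*Btc*), epiregulin (*Ereg*), epigen (*Epgn*) and EGF, ErbB3 binds neuregulins such as the product of *Nrg1*, and ErbB2 has no ligand of its own and serves as the partner of the others. The ligands are made as membrane-bound precursors and released by proteases of the ADAM and rhomboid families. In the cornea, EGFR signaling is known for driving the migration and proliferation of epithelial cells that close a wound.

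Total expected counts, the read numbers that RSEM assigns to genes, ranged from 19492942 to 19733834 per sample. *Rela* itself had 1614 to 1799 counts in controls and 230 to 270 in mutants, so each library matched its label. *Krt12*, the keratin of the corneal epithelium, had an FPKM (a level scaled by transcript length and sequencing depth) of 19694 on average in control and 18270 in mutant samples, and the 9 corneal epithelial markers summed to 46905 to 50929 in control and 43366 to 46893 in mutant samples. Of these 9, 4 were lower and 2 higher in every mutant sample, among the latter *Krt14* with 150 to 203 in control and 1474 to 2204 in mutant samples. The conjunctival and goblet cell markers summed to 1365 to 1598 in control and 1075 to 1192 in mutant samples, mostly *Krt13*, and *Krt4*, *Krt8* and *Krt13* were lower in every mutant sample while *Muc5ac* stayed at 0.01 or below. The 10 stromal markers summed to 2.63 to 2.99 in control and 2.30 to 5.54 in mutant samples. *Pdgfra*, the most abundant of them in controls, was lower in every mutant sample, *Dcn*, *Vim*, *Col1a1* and *Col3a1* were higher, and the keratocyte gene *Kera* stayed at 0.07 or below. The vessel markers summed to 0.93 to 1.95 in control and 0.90 to 1.19 in mutant samples, with *Pecam1* higher in every mutant sample and *Cdh5* at 0.04 or below. The immune markers summed to 81.6 to 89.4 in control and 73.7 to 121 in mutant samples, with *Lyz2* and *Cd68* higher in every mutant sample and *Ptprc* at 0.15 or below. The epidermal (5.94 to 6.77 and 4.99 to 6.31) and melanocyte sums (4.29 to 4.97 and 4.65 to 5.18) overlapped. Among the mutant libraries, the sample 1 stood apart, with a chi-square per gene of 19.7 and 27.6 against the samples 2 and 3, where the other pairs within a genotype gave 8.50 to 10.2. Whether any of these differences has a part in the results was not tested. In bulk RNA, fewer cells of a type and less RNA per cell cannot be told apart.

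In the control epithelium *Hbegf* was the most abundant ligand and *Egfr* the most abundant receptor on the FPKM scale. The mean FPKM of *Hbegf* was 63.5 ± 6.1 (SD, n = 3), followed by *Egfr* at 52.0 ± 4.1, *Erbb2* at 42.0 ± 1.7 and *Erbb3* at 41.5 ± 3.8. The remaining genes lay lower, with *Epgn* at 10.98 ± 1.0, *Ereg* at 9.92 ± 0.30, *Tgfa* at 8.66 ± 0.60, *Btc* at 7.32 ± 0.07, *Nrg1* at 5.70 ± 0.98 and *Areg* at 4.61 ± 0.50. The control ranges of *Erbb2* and *Erbb3*, of *Epgn* and *Ereg*, and of *Nrg1* and *Areg* overlapped, so the order within these pairs is not set by the 3 samples. In the mutant samples *Tgfa* (15.9 ± 1.6) stood above *Epgn* (12.75 ± 2.8), with overlapping ranges, and *Btc* (5.63 ± 0.89), *Ereg* (6.63 ± 1.6), *Areg* (6.73 ± 1.7) and *Nrg1* (8.48 ± 2.7) had overlapping ranges. The plot of FPKM by sample shows these levels.

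**Figure D1:**
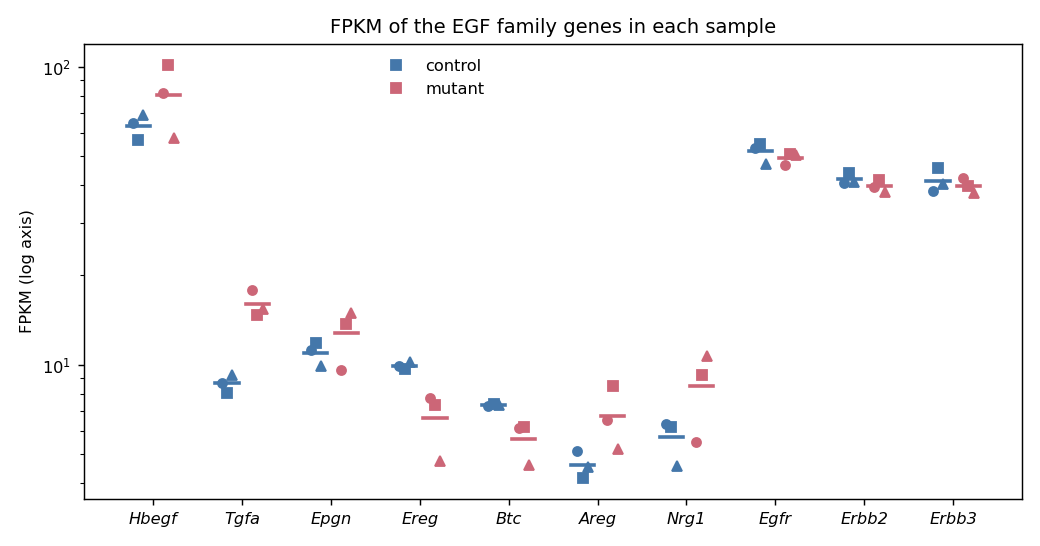
FPKM (log axis) of the 7 ligands and 3 receptors in 3 control samples (blue) and 3 mutant samples (red), where circles, squares and triangles are samples 1, 2 and 3 and the line is the mean. The mutant samples lie above all control samples in *Tgfa* (14.7 to 17.8 against 8.06 to 9.25) and below them in *Ereg* (4.77 to 7.76 against 9.65 to 10.2), while the receptors overlap.

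Of the 10 genes, which all passed the filter on low counts, *Tgfa* and *Nrg1* were higher and *Ereg* was lower in mutants at an adjusted p under 0.05 in edgeR's quasi-likelihood test. That is 2 of 10 higher and 1 of 10 lower, where 7.82% of the 12667 tested genes were called higher, 5.42% lower and 13.2% in either direction. The median log2 fold change of the 10 genes was 0.08, beside 0.00 over all genes tested. At the thresholds of the study's methods, a fold change of 2 or more with an adjusted p not above 0.001, edgeR called 0 of the 10 genes (1.37% of all genes tested), and DESeq2 also called 0. At an unadjusted p under 0.05 edgeR counted 5 of the 10, where it counted 28.1% of all genes tested. The CPM ranges (counts scaled to the library total as adjusted by edgeR's TMM scaling) of the genotypes did not overlap in 5 of the 10. In mutants *Tgfa*, *Areg* and *Nrg1* lay above and *Ereg* and *Btc* below. Of all genes tested, 33.7% had such ranges, 17.3% above and 16.4% below.

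*Tgfa* encodes TGFα, a ligand of EGFR that epithelial cells make for themselves. It lies on chromosome 6 of GRCm38 from 86195038 to 86275744. Its FPKM was 8.67, 8.06 and 9.25 in controls and 17.8, 14.7 and 15.4 in mutants. The lowest mutant sample was thus well above the highest control sample. *Tgfa* rose by 0.88 on the log2 scale (standard error 0.10, edgeR quasi-likelihood, Benjamini-Hochberg adjusted p = 5.5e-04), a fold of 1.84 with a 95% interval of 1.57 to 2.14. By p-value *Tgfa* ranked 158 of the 12667 genes tested. It was called in all 13 alternative fits, with log2 fold changes from 0.78 to 0.94 and adjusted p-values up to 0.0058. Of the 50-base windows of its transcripts, 1.08% also occur in another gene, *Gm43917*.

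The bases upstream of the transcription start are given for *Areg* and *Btc*, ligands whose levels did not overlap between the genotypes and which have an entry in the RefSeq promoter table (GRCm38.p6). Promoters of 6 of the 10 genes were searched for motifs, those of *Epgn*, *Areg*, *Btc*, *Tgfa*, *Egfr* and *Erbb2*. The promoters of *Hbegf*, *Ereg*, *Erbb3* and *Nrg1* were not searched, so nothing is said of their motifs. Each sequence holds 250 bases and ends at the base before the start that the table gives. For *Tgfa* the table's start is base 86195222, inside the extent of the gene given above, so its sequence is not shown. Capitals mark matches to the motifs named after them.
*Areg*, chr5:91139349-91139598, plus strand: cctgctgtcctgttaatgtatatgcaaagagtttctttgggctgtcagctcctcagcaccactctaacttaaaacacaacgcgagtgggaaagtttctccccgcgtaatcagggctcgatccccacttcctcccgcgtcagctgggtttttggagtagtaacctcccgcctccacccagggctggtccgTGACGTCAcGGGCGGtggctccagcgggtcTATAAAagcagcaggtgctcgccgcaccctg
*Btc*, chr5:91402995-91403244, minus strand: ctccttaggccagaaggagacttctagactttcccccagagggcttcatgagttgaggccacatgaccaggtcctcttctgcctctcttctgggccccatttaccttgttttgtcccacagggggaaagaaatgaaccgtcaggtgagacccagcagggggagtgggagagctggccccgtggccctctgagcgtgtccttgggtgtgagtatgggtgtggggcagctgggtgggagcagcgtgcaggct
In *Areg* the capitals are a cyclic AMP response element (TGACGTCA) from base 61, a GC box (GGGCGG) from base 52 and a TATA box (TATAAA) from base 31 before the start, none of which overlap. *Btc* had no match. The NF-κB consensus matched none of the 6 promoters on either strand, and neither did the AP-1 motif TGANTCA. Over all 32851 promoters of the table, 3.90% held the NF-κB consensus, 6.75% the AP-1 motif, 32.7% a GC box, 12.4% a TATA box and 1.55% a cyclic AMP response element in this window. Such a match is a match of letters only and does not show that a factor binds there. Nor does the lack of a match in 250 bases show that a factor does not act on the gene. Bases farther upstream were not searched, and at a background of 3.90% few matches would be found in 6 promoters in any case.

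*Hbegf*, on chromosome 18, encodes HB-EGF, a heparin-binding ligand of EGFR known for its rapid induction at epithelial wound edges. Its FPKM was 64.7, 56.8 and 68.9 in controls and 81.3, 102 and 57.65 in mutants. The mutant samples spread on both sides of the controls, with the sample 2 highest and the sample 3 within the control range. The log2 fold change was 0.34 (95% interval -0.07 to 0.74, adjusted p = 0.26, same edgeR test). The log2 fold change was 0.12 (adjusted p = 0.68) without the mutant sample 2 and 0.53 (adjusted p = 0.022) without the mutant sample 3, the only alternative fit that called it.

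*Areg* encodes amphiregulin, an EGFR ligand named for both stimulating and inhibiting growth. Its FPKM was 5.14, 4.16 and 4.53 in controls and 6.51, 8.49 and 5.20 in mutants. Each mutant sample was above each control sample, although the mutant sample 3 exceeded the control sample 1 by little. The log2 fold change was 0.55 (95% interval 0.11 to 0.98, adjusted p = 0.096, same edgeR test), so the difference did not pass the threshold over all genes. With 97 to 199 counts it was the least counted of the 10 genes. It was 0.34 (adjusted p = 0.29) without the mutant sample 2 and passed the threshold without the mutant sample 3 (0.71, adjusted p = 0.028).

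*Ereg* encodes epiregulin, which binds EGFR and ErbB4. Its FPKM was 9.88, 9.65 and 10.2 in controls and 7.76, 7.35 and 4.77 in mutants. The control samples were nearly equal, and each mutant sample was lower. *Ereg* fell by 0.58 on the log2 scale (standard error 0.16, adjusted p = 0.042, same edgeR test). The call was lost when any one of the control samples or the mutant sample 2 was left out (adjusted p = 0.096, 0.11, 0.13 and 0.061). Without the mutant sample 3 the log2 fold change was -0.39 (adjusted p = 0.023). DESeq2 gave an adjusted p of 0.0052 and limma on log2(FPKM + 1) one of 0.051. In its transcripts 2.26% of the 50-base windows are shared with *Gm19610*.

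*Btc*, the gene of betacellulin, was also lower in each mutant sample, at an FPKM of 6.11, 6.18 and 4.60 against 7.25, 7.39 and 7.33 in controls. Its log2 fold change was -0.38 (95% interval -0.66 to -0.10, adjusted p = 0.074, same edgeR test), which did not pass the threshold. Without the mutant sample 1 it did (-0.45, adjusted p = 0.049), and without the mutant sample 3 it was -0.25 (adjusted p = 0.14). *Epgn* encodes epigen, the ligand of this family that binds EGFR with low affinity. Its FPKM was 11.2, 11.8 and 9.87 in controls and 9.62, 13.7 and 14.9 in mutants, so the ranges overlapped. The log2 fold change of *Epgn* was 0.21 (95% interval -0.12 to 0.55, adjusted p = 0.39), 0.37 with an adjusted p of 0.035 without the mutant sample 1 and 0.096 with an adjusted p of 0.75 without the mutant sample 3.

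An exact two-sided permutation test of log2(FPKM + 1) gave p-values from 0.1 to 0.6 over the 10 genes, and 0.1 is the smallest that 3 against 3 samples allow.

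The mutant samples did not rank the ligands in 1 order. The mutant sample 3 was the lowest of the 3 in *Hbegf*, *Areg*, *Ereg* and *Btc* and the highest in *Epgn* and *Nrg1*. The mutant sample 1 was the lowest in *Epgn* and *Nrg1* and the highest in *Tgfa* and *Ereg*.

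*Nrg1* encodes neuregulin 1, which binds ErbB3 and ErbB4 and is made in many isoforms. It had 874, 844 and 627 counts in controls and 925, 1128 and 1238 in mutants. Each mutant sample was above each control sample, the mutant sample 1 by little. *Nrg1* rose by 0.48 on the log2 scale (standard error 0.13, adjusted p = 0.039, same edgeR test), a fold of 1.40 with a 95% interval of 1.14 to 1.71. This call held in 5 of the 13 alternative fits. When single samples were omitted it held only without the mutant sample 1 (0.58), and the adjusted p was 0.056, 0.086 and 0.12 without the control samples 1, 2 and 3 and 0.11 and 0.099 without the mutant samples 2 and 3. Whether other cells, such as those of the stroma, have a part in the difference was not tested.

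On the FPKM scale the picture of *Nrg1* was less clear than in counts. Its FPKM was 6.33, 6.20 and 4.57 in controls and 5.52, 9.26 and 10.7 in mutants, and the groups overlapped because of the mutant sample 1. Limma on log2(FPKM + 1) gave an adjusted p of 0.19. Of the 50-base windows of its transcripts, 4.09% are shared with *Gm26578*. The transcript length that follows from the count and the FPKM together was 6985 to 7026 bases in controls but 8593, 6229 and 5887 bases in the mutant samples 1, 2 and 3. This length is an average over the 56 transcripts listed for *Nrg1*, weighted by how RSEM divided the reads among them. The highest length was 1.46 times the lowest, a ratio reached by 10 of 9467 genes with an FPKM of at least 1 and at least 100 counts in every sample, whose median ratio was 1.01. Reads of 50 bases from 1 end seldom tell isoforms apart, so which isoforms differed is not known from these data. For the other 9 genes the length differed by less than 1% between samples.

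The receptors differed little. *Egfr* had an FPKM of 53.6, 55.2 and 47.3 in controls and 46.9, 50.9 and 50.5 in mutants. *Erbb2* had 40.9, 43.9 and 41.2 against 39.5, 41.6 and 38.0, and *Erbb3*, which has an impaired kinase and signals through its partners, had 38.2, 45.6 and 40.5 against 42.3, 39.9 and 37.6. The groups overlapped in all 3 receptors. The log2 fold changes were -0.08 (95% interval -0.25 to 0.10) for *Egfr*, -0.08 (-0.25 to 0.08) for *Erbb2* and -0.06 (-0.26 to 0.14) for *Erbb3*. Their adjusted p-values were 0.57, 0.51 and 0.73 in the same edgeR test. The sign of *Erbb3* turned without the control sample 2 (0.0092). With at least 3005 counts per sample the receptors had the smallest standard errors of the 10 genes, and the intervals leave room for a fold between 0.837 and 1.10. The share of each receptor in their summed FPKM was alike in both genotypes, for *Egfr* 38.4% ± 1.9 in control and 38.3% ± 1.8 in mutant samples (SD, n = 3 each).

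**Figure D2:**
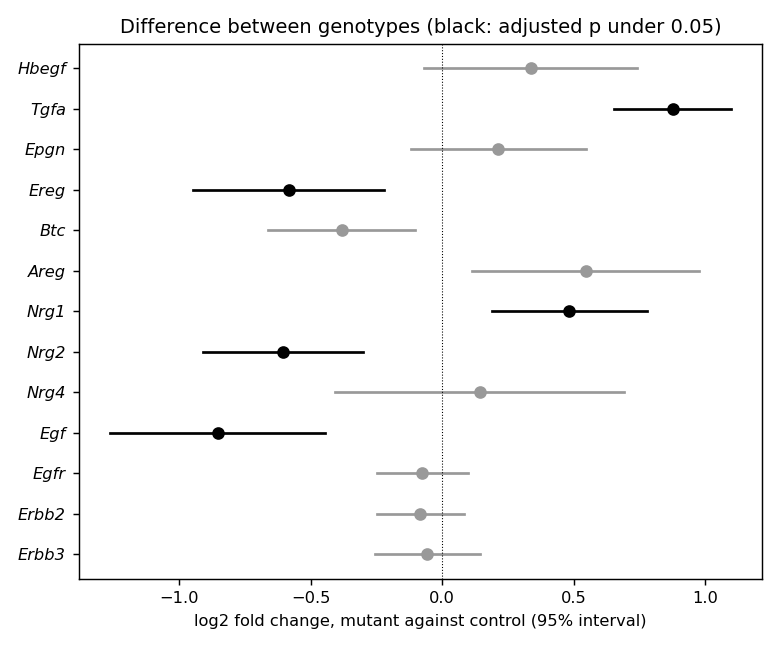
Log2 fold change of mutant against control samples (3 each, edgeR) with its 95% interval for the 10 genes and for *Nrg2*, *Nrg4* and *Egf*, black where the adjusted p was under 0.05. *Tgfa* (0.88) and *Nrg1* (0.48) lie to the right, *Ereg* (-0.58), *Nrg2* (-0.61) and *Egf* (-0.85) to the left, and the intervals of the 3 receptors include 0.

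As a description with no test, the make-up of the 6 EGFR ligands among the 10 genes was compared on the FPKM scale. *Hbegf* made up 60.4% ± 2.3 of their summed FPKM in control and 62.0% ± 5.4 in mutant samples (SD, n = 3 each). The share of *Tgfa* was 8.11% to 8.40% in controls and 13.8%, 9.64% and 15.01% in mutants. The share of *Ereg* was 9.25% to 9.85% in controls and 4.65% to 6.01% in mutants, and that of *Btc* was 6.66% to 7.55% and 4.07% to 4.73%. These shares are tied to each other, since they add up to the whole. The summed FPKM of the 6 ligands was 107, 97.9 and 110 in controls and 129, 152 and 103 in mutants. The mutant sample 3 thus lay within the control range. Divided by the summed FPKM of the 3 receptors, it was 0.78 ± 0.09 in control and 0.99 ± 0.17 in mutant samples, with overlapping ranges.

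**Figure D3:**
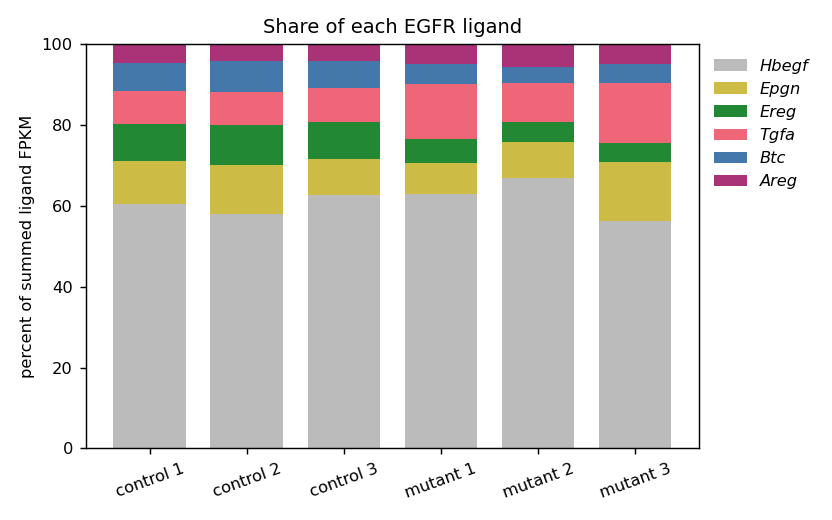
Share of each of 6 EGFR ligands in their summed FPKM, as a percent, in each of the 6 samples. *Hbegf* takes 56.2% to 66.9% in every sample, and the share of *Tgfa* is 8.40% or less in control samples and 9.64% or more in mutant samples, while those of *Ereg* and *Btc* are smaller in each mutant sample than in each control sample.

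The other genes of the family were *Egf*, *Nrg2*, *Nrg3*, *Nrg4* and *Erbb4*. Of these 5, 3 passed the filter, and 2 were called, both lower in mutants, where 5.42% of all genes tested were called lower. *Egf*, the founding ligand of EGFR, was scarce, with 95, 84 and 70 counts in controls and 43, 47 and 48 in mutants. It fell by 0.85 on the log2 scale (standard error 0.18, adjusted p = 0.014, same edgeR test), and the adjusted p was 0.063 without the control sample 1 and 0.058 without the control sample 2. Of the windows of *Egf*, 8.11% are shared with other genes, *Gm42697* and *6330410L21Rik*. *Nrg2*, a neuregulin like *Nrg1*, had an FPKM of 8.29, 7.98 and 7.21 in controls and 3.95, 5.63 and 6.01 in mutants. It fell by 0.61 on the log2 scale (standard error 0.14, adjusted p = 0.018), with adjusted p-values of 0.059, 0.075 and 0.057 without the control samples 1, 2 and 3. *Nrg1* and *Nrg2* thus moved in opposite directions, each within its own test. *Nrg4* had 23 to 30 counts in control and 27 to 34 in mutant samples (log2 fold change 0.14, adjusted p = 0.75). *Erbb4* and *Nrg3* had at most 4 counts in any sample, so a difference in them was not detectable at this depth.

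The genes around the receptors were described with 4 more lists. Together with the other family genes the 5 lists held 84 genes, of which 78 were tested and 18 called, 12 higher and 6 lower. That is 23.1% of the tested genes of these lists, beside 13.2% of all genes tested, and their median log2 fold change was 0.02. The 18 include *Fosl1* and *Dusp4*, which passed the filter on low counts only through the mutant samples. The lists were also chosen with earlier results of these data known, so this share is no measure of the pathway. DESeq2 called 20 of the 84.

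The list on ligand release held 12 genes, metalloproteases and a rhomboid protease as well as *Rhbdf1*, *Rhbdf2* and *Frmd8*, whose products assist ADAM17, and the inhibitor gene *Timp3*. Of these, 10 were tested, 4 were called higher and 1 lower, 50% beside 13.2% of all genes tested. The median log2 fold change of the list was 0.19. *Adam17* and *Adam10* encode the main sheddases, ADAM17 for the precursors of TGFα, amphiregulin and HB-EGF and ADAM10 for those of EGF and betacellulin. The FPKM of *Adam17* was 20.7, 20.9 and 19.8 in controls and 28.04, 25.3 and 23.9 in mutants. It rose by 0.33 on the log2 scale (standard error 0.08, adjusted p = 0.029, same edgeR test). *Adam10* rose by 0.34 (adjusted p = 0.022), from 20.75 to 23.1 in controls to 26.4 to 30.2 in mutants. *Rhbdl2*, the gene of a rhomboid protease of epithelial cells, rose by 0.53 (adjusted p = 0.012), from an FPKM of 10.75, 11.8 and 12.5 to 19.7, 15.9 and 15.9. The largest change of the list was that of *Adam8*, a metalloprotease gene also expressed by leukocytes. *Adam8* had 24, 26 and 48 counts in controls and 265, 128 and 193 in mutants (log2 fold change 2.57, standard error 0.33, adjusted p = 0.0010). Of 11 immune markers 10 were in the table, 2 of them higher in every mutant sample, and the part of immune cells in *Adam8* was not tested. *Adam15* was lower (-0.24, adjusted p = 0.045). *Adam8* was called in all 6 fits that left out a sample, *Rhbdl2* in 4, *Adam10* and *Adam17* in 2 each, which were those without the mutant samples 1 and 3, and *Adam15* in 0, with adjusted p-values up to 0.059, 0.096, 0.10 and 0.15. *Timp3*, an inhibitor of ADAM17, had an FPKM of 7.74, 5.48 and 3.76 in controls and 1.40, 3.52 and 5.34 in mutants, with overlapping ranges (adjusted p = 0.25).

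Of 14 genes that attenuate the receptors, all tested, 1 was called higher and 1 lower, 14.3% beside 13.2% of all genes. *Errfi1*, whose product MIG6 binds and inhibits active EGFR and is itself induced by EGFR signaling, had an FPKM of 32.1, 32.1 and 30.1 in controls and 52.3, 44.3 and 39.8 in mutants. It rose by 0.53 on the log2 scale (standard error 0.10, adjusted p = 0.0096, same edgeR test) and was called in all 6 fits that left out a sample. *Lrig3*, of the LRIG family of ErbB regulators, fell by 0.41 (adjusted p = 0.022), from an FPKM of 8.59, 9.82 and 7.94 to 6.41, 7.13 and 6.36. It lost the call without the control samples 1 and 2 and without the mutant sample 3, with adjusted p-values up to 0.088.

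Of 30 signal transducers, from adaptors through RAS and MAP kinases to PI3 kinase and STAT3, all were tested, 1 was called higher and 1 lower. That share, 6.67%, is below that of all genes tested, and the median log2 fold change was -0.01. *Stat3* encodes a transcription factor that EGFR and cytokine receptors activate. Its FPKM was 43.8, 48.2 and 42.8 in controls and 58.4, 60.3 and 63.1 in mutants (log2 fold change 0.43, standard error 0.07, adjusted p = 0.0045, same edgeR test), and all 6 fits that left out a sample called it. *Pik3r1*, the gene of a regulatory subunit of PI3 kinase, fell by 0.33 (adjusted p = 0.032), a call that held only without the mutant sample 1 among those 6 fits, with adjusted p-values up to 0.12 in the rest.

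The early response list held 23 genes that growth factors induce within minutes to hours and feedback regulators of MAP kinases. Of these, 21 were tested, 6 were called higher and 1 lower, 33.3% beside 13.2% of all genes tested. Their median log2 fold change was 0.47. These genes answer to many signals besides ErbB receptors. *Jun* rose by 1.503 on the log2 scale (adjusted p = 4.9e-05, same edgeR test), from an FPKM of 20.4, 19.8 and 17.8 to 61.8, 55.7 and 46.8. *Ier3* rose by 0.89 (adjusted p = 0.0017) and *Myc* by 0.68 (adjusted p = 0.0029). *Fosl1*, whose protein is the AP-1 subunit FRA1, had 0 counts in each control sample and 28, 48 and 50 in mutants, and was at least 14.0-fold higher against the level of 3 counts per library. *Dusp4*, which encodes a phosphatase of MAP kinases, had 1 count in controls together and 26, 13 and 13 in mutants, a ratio of 51.9 with an exact 95% counting interval of 8.91 to 2089. *Jun*, *Ier3* and *Myc* were called in all 6 fits that left out a sample. *Fosl1* and *Dusp4* passed the filter on low counts only through the mutant samples, so they had to differ. Both are included in the 6 higher calls of the list and in its share of 33.3%, so that count and share are no measure of the list. *Ccnd1*, the gene of cyclin D1, fell by 0.62 (adjusted p = 0.031), from an FPKM of 144, 130 and 113 to 67.6, 74.3 and 109. That call held without the mutant sample 1 or 3 but not without the mutant sample 2 or any one of the control samples, with adjusted p-values up to 0.11.

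**Figure D4:**
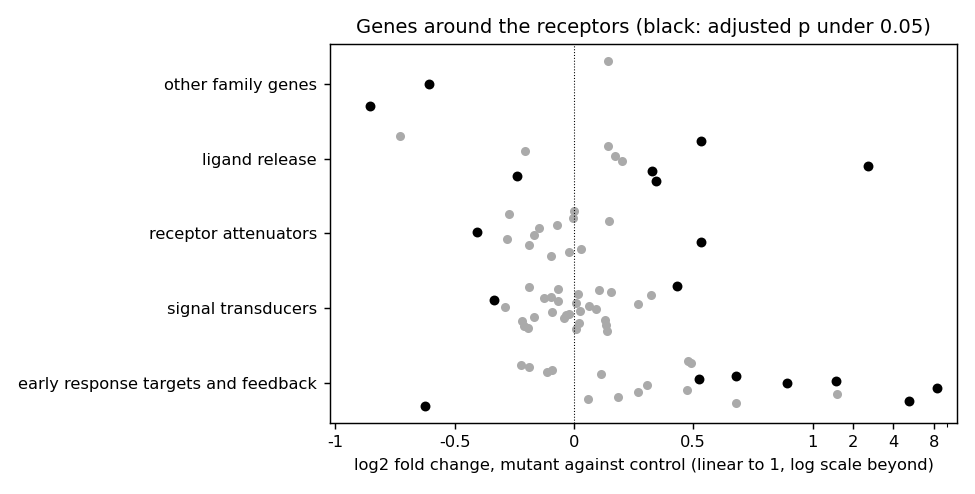
Log2 fold change of mutant against control samples (edgeR) for the tested genes of 5 lists, black where the adjusted p was under 0.05, with a horizontal axis that is linear up to 1 and logarithmic beyond. Most of the 30 signal transducers lie near 0, and the black points to the right include *Adam8* (2.57), *Jun* (1.503), *Dusp4* (5.25) and *Fosl1* (8.39), the last 2 being fitted values of genes with 0 or 1 control counts that are no bounds.

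The KEGG annotation of the deposited table gives the ErbB signaling pathway another outline. It named 77 genes besides the 10 described here, of which 68 were tested, 4 were called higher and 4 lower, 11.8% beside 13.2% of all genes tested. The median log2 fold change of the 68 was 0.00. Among them *Prkca*, the gene of protein kinase Cα, rose by 0.72 on the log2 scale (adjusted p = 4.0e-04, same edgeR test), with an FPKM of 4.60, 4.30 and 4.07 in controls and 6.66, 7.16 and 7.56 in mutants. *Eif4ebp1*, which encodes a repressor of cap-dependent translation, rose by 0.68 (adjusted p = 0.0055). Both were called in all 6 fits that left out a sample. *Bad* was lower (log2 fold change -0.35, adjusted p = 0.044, same edgeR test), a call that held in 1 of those 6 fits.

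The genes of 4 ligands stand side by side on chromosome 5 of GRCm38. In order, *Epgn* lies from 91027517 to 91035212, *Ereg* from 91074617 to 91093649, *Areg* from 91139599 to 91148432 and *Btc* from 91357261 to 91402994, a stretch of 375 kb in all. The neighbors differed in sign, with log2 fold changes of 0.21 for *Epgn*, -0.58 for *Ereg*, 0.55 for *Areg* and -0.38 for *Btc*, of which that of *Ereg* was called. Among 11 other genes of the table within 500 kb of this stretch, 6 were tested. Of these, 4 were called, 3 higher and 1 lower, where 13.2% of all genes tested were called. The 3 higher ones encode chemokines of the CXC family. *Ppbp* had 1, 2 and 1 counts in controls and 725, 303 and 113 in mutants, a ratio of 285 with an exact 95% counting interval of 111 to 1047. *Cxcl3* had 0 counts in each control sample and 124, 22 and 20 in mutants, at least 18.5-fold higher against 3 counts per library. *Cxcl1* had 5, 3 and 6 counts against 20, 16 and 14 (log2 fold change 1.80, adjusted p = 0.016, same edgeR test). All 3 passed the filter on low counts only through the mutant samples, so their count is no measure of the region. *Mthfd2l*, which encodes a mitochondrial folate enzyme, lies between the chemokine genes and *Epgn* and was lower (-0.37, adjusted p = 0.040). *Mthfd2l* was called in 0 of the 6 fits that left out a sample (adjusted p up to 0.12).

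**Figure D5:**
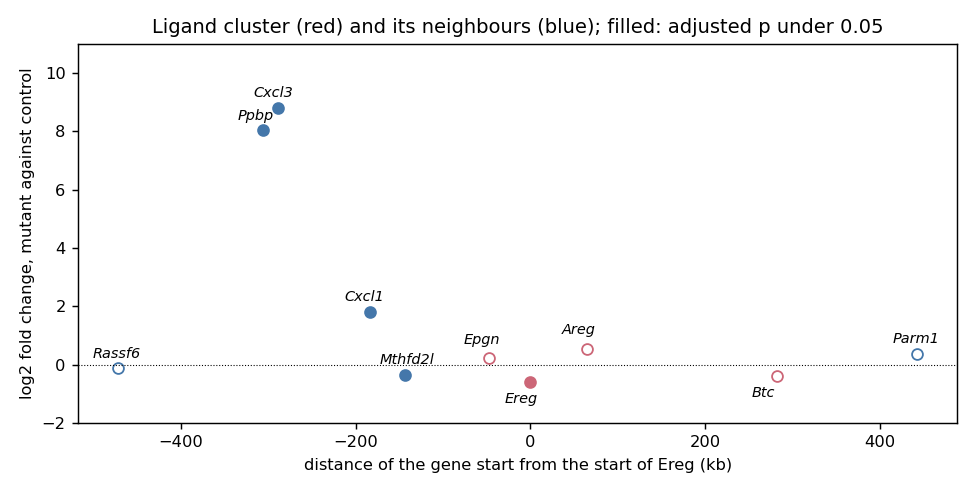
Log2 fold change of mutant against control samples (edgeR) by distance in kb of the gene start from that of *Ereg*, with the 4 clustered ligands in red, their tested neighbors in blue and filled points where the adjusted p was under 0.05. The ligands lie between -0.58 and 0.55, and the chemokine genes on the left reach 8.80 (*Cxcl3*) and 8.03 (*Ppbp*), fitted values that rest on few or 0 control counts.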

How the data were processed

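Reads of 3 control and 3 mutant corneal epithelial samples were processed by the authors with SOAPnuke, Bowtie2 2.2.5 and RSEM 1.2.12, and the deposited expected counts and FPKM values per sample are neither pooled nor further normalized. The submitters' notes name mm9, but the coordinates in the deposited table are those of GRCm38. The averages of the authors and their DEGseq fold changes, p-values and q-values were not used.

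Expected counts were rounded and tested with edgeR 4.0.16 (R 4.3.3): filterByExpr (minimum count 10, minimum total 15), TMM scaling, quasi-likelihood test by genotype, Benjamini-Hochberg adjustment over 12667 genes. Standard errors were derived from the F statistic (absolute log2 fold change divided by its root), and 95% intervals from them. Single values were compared by exact permutation. The replicate libraries differed by more than sampling noise, the mutant sample 1 most. On simulated counts of 12667 genes for this comparison the test called 50.7%, 78.9% and 96.8% of genes changed 1.5-, 2- and 4-fold, and its false calls numbered 17. Counting intervals and floors cover counting error only.

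The genes, lists and motifs were chosen with earlier results of these data known. Named are the 10 genes, the other family genes, *Rela*, and of each list the called genes, at most 6, by adjusted p. Alternatives were DESeq2 1.42.0, upper-quartile scaling, other filters, limma 3.58.1 on log2(FPKM + 1) and log2(FPKM + 0.1), a replicate block and leaving out each sample. Shared windows were counted in GENCODE transcripts of GRCm38. Protein sequences were not used here, and a marker list is left out.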

Additional observations from a re-analysis of the deposited data

How the results depend on the processing

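*Tgfa* was called in each of the 13 alternative fits. Of the 10 genes, 3 were called with DESeq2, upper-quartile scaling, no filter or a minimum of 10 counts throughout, 1 by limma with a pseudocount of 1 and 2 with one of 0.1, and from 1 to 5 when a sample was left out. None passed the study's thresholds in any fit (0 to 0 without a sample). Pathway list genes called, 18, numbered 8 to 21 without a sample, the lowest without the control sample 1 or 2. Chromosome 5 neighbors called, 4, numbered 1 with at least 10 counts in every sample, which removes genes near 0 in the control samples, and 1 to 4 without a sample. The log2 fold change of *Erbb3* ranged from -0.12 to 0.0092 without a sample, its sign turning without the control sample 2. Other causes were not tested.

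The replicate numbers of the labels mark different mice. The deviations of same-numbered samples correlated at -0.03, 0.07 and -0.07, and only number 2 correlated best with its own number. With 3 samples per genotype these values cannot exclude that same-numbered samples share a litter or a day. With the replicate block 2 of the 10 genes were called (*Nrg1* had an adjusted p of 0.066), 17 pathway genes and 3 neighbors. At this depth *Erbb4* and *Nrg3* could not be compared.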
